A study of Mus musculus with 8 samples.

Results

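Growth cone genes were followed in sorted cells of the fetal mouse bowel. The set held 9 genes, Gap43, Basp1, Marcks, Marcksl1, Tagln3, Rtn1, Uchl1, Gpm6a and Gpm6b, which were chosen by name and found by matching the gene symbol in a table of 29092 genes. All 9 were present once in the table and all 9 passed the filter on low counts, which kept 18866 genes. ENCDCs (GFP+, enteric neural crest-derived cells, the precursors of the enteric nervous system) were compared with gut cells (GFP-, the remaining cells of such bowels), with 4 mRNA-seq libraries of each population. Bowel from stomach to anus was taken at E13.5 from embryos that carried the Ednrb-EGFP transgene, bred from heterozygous Ednrb-EGFP and wild-type C57BL/6J mice, and the genotype of both populations was given as wild-type. The sort therefore rested on GFP driven by Ednrb, an endothelin receptor gene. RNA of several bowels was pooled where needed to reach the input amount, so a library need not be 1 embryo and the p-values measured the spread between libraries.

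A growth cone is the motile tip of an extending axon, where actin and microtubules are rearranged beneath a membrane rich in signaling lipids. Gap43, Basp1 and Marcks encode membrane-attached proteins with little fixed structure that share a mode of action: each carries a basic stretch that binds the lipid PIP2 at the inner membrane, and each gives it up when bound by calmodulin or phosphorylated by protein kinase C, which frees the lipid for regulators of actin. Gap43 is a classic marker of growing and regenerating axons, while Marcks and its relative Marcksl1 are also made by many cells that are not neurons. Migrating neural crest cells and newborn enteric neurons both extend such processes as they colonize the bowel.

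The 8 libraries held between 13250893 and 13267220 counts each, because the authors had brought all libraries to 1 depth, and the values below are counts after TMM normalization (normalized counts). Lists of cell type markers were checked against the labels. All 8 neuron markers and all 7 markers of enteric progenitors and early glia were higher in ENCDCs (median log2 fold changes 6.4 and 3.95), while all 7 mesenchyme markers were lower (median -4.23). All markers of smooth muscle, epithelium, macrophages and erythroid cells were also lower. The exceptions in the other lists were Kdr of endothelium (1.40) and Etv1 of interstitial cells of Cajal (0.73), which were higher (log2), and Msln of mesothelium, which did not pass the test. ENCDC replicate 3 stood apart on the second principal component, which held 11.4% of the variance, and the first component (66.8%) separated the populations. That library also had the fewest genes above 0 of the 8. It had 17953, with 19123 to 20070 in the other ENCDC libraries and 20083 to 22342 in gut libraries. The summed count of the 7 mesenchyme markers was 20099.6 in ENCDC replicate 3 and 2829.5 to 8242.5 in the other ENCDC libraries, against 145857.4 to 193335.5 in gut libraries. For the 7 smooth muscle markers the sums were 10001.6 in ENCDC replicate 3 and 1544.1 to 3447.7 in the other ENCDC libraries, against 48430.4 to 60334.3 in gut libraries. No gene of either list was at 0 in any library, and the part of these markers in the results was not tested. The part of the lower number of genes above 0 was not tested either. Fold changes are therefore also given without ENCDC replicate 3.

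Of the 9 growth cone genes, 7 were higher in ENCDCs than in gut cells, 0 were lower, and Basp1 and Gpm6a did not pass the test (edgeR quasi-likelihood test, Benjamini-Hochberg adjusted p under 0.05 over all 18866 genes). Over all tested genes, 17% were called higher and 20.9% lower. In a test against a 2-fold change, 5 of the 9 (Rtn1, Uchl1, Gap43, Tagln3 and Gpm6b) remained higher, beside 5.21% of all genes. After normalization the ENCDC libraries lay above every gut library for 8 of the 9, the exception being Gpm6a, beside 16.9% of all genes. The median log2 fold change was 1.34 for the 9 genes and -0.041 for all genes. Without ENCDC replicate 3 again 7 were higher, and the log2 fold changes of the 5 genes with the smaller differences were 0.20 for Basp1, 0.68 for Marcks, 0.75 for Marcksl1, 0.80 for Gpm6a and 1.32 for Gpm6b. With voom and limma, the packages used in the study, 8 of the 9 were called higher, Gpm6a included. Over all 18866 genes, 3241 were called higher by those packages. The 9 differed widely among themselves: Rtn1 was 51.3-fold higher in ENCDCs and Basp1 1.15-fold, although both are known as neuronal genes. In bulk samples such as these, fewer cells of a type and less RNA per cell cannot be told apart.

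**Figure D1:**
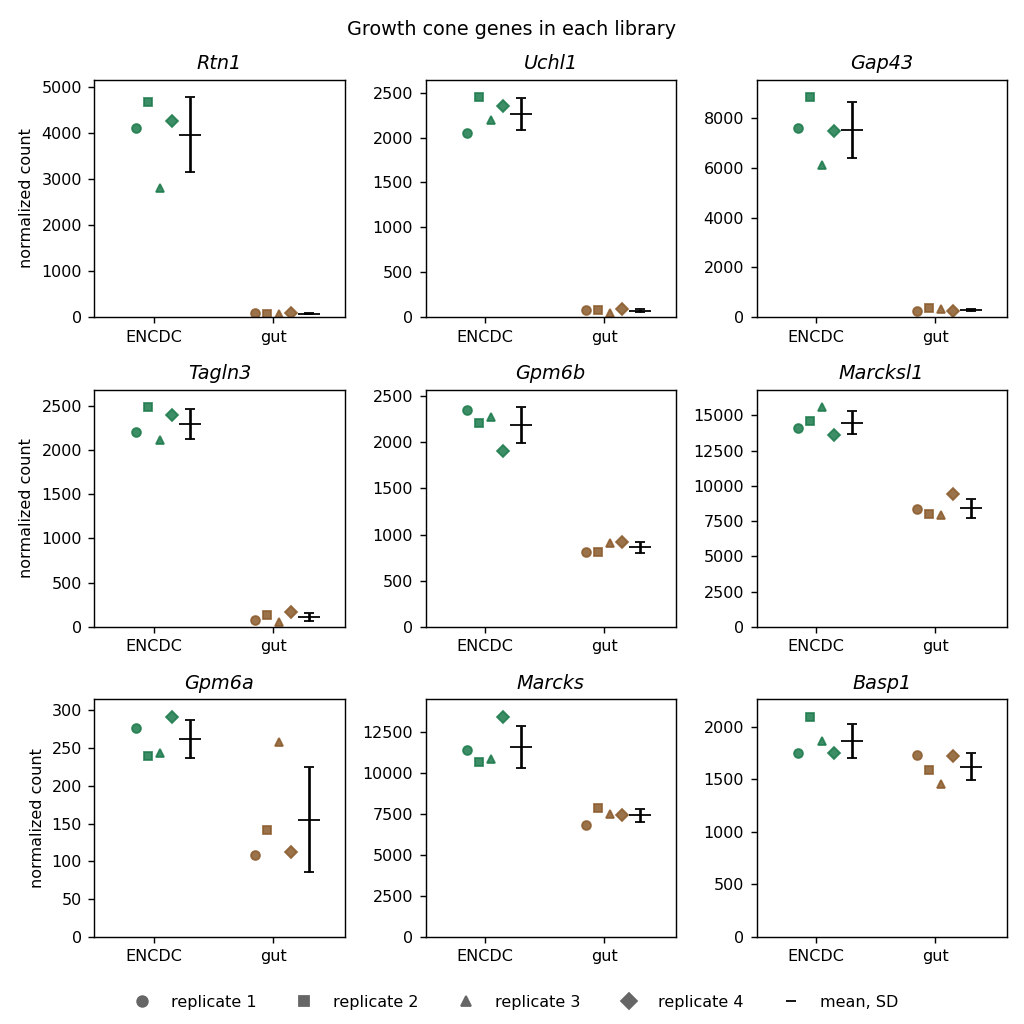
Normalized counts of the 9 growth cone genes in each library, with ENCDC libraries (GFP+, green) left and gut libraries (GFP-, brown) right in each panel; marker shapes give the replicate number and bars the mean ± SD of 4 libraries. Rtn1, Uchl1, Gap43 and Tagln3 lie near 0 in gut libraries, Marcks and Marcksl1 are far above 0 in both populations, and gut replicate 3 reaches the ENCDC level for Gpm6a alone.

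Gap43, the growth-associated protein of axon tips, had 7615.7, 8826.3, 6100.8 and 7485.9 normalized counts in ENCDC replicates 1 to 4, against 260.5, 357.6, 318.9 and 265.5 in gut replicates 1 to 4. The lowest ENCDC library was replicate 3, and it still lay far above the highest gut library. The means were 7507.2 ± 1115.1 in ENCDCs, against 300.6 ± 46.3 in gut cells (SD, 4 libraries each), and the log2 fold change was 4.64 ± 0.15 (SE, 25.0-fold, edgeR adjusted p = 5.03e-09). Without ENCDC replicate 3 it was 4.73. The gene lies at chr16:42248442-42340651 on the minus strand (GRCm38), and its transcript Gap43-201 has 3 exons. The hairpin of Mir6540, a microRNA gene, lies within its intron 1 on the same strand, at chr16:42303362-42303469, 10995 bases from exon 2. Intron 1 spans 48106 bases, from 42292367 to 42340472. The hairpin is shown because it lies inside the Gap43 gene; the capitals mark the mature miR-6540-3p and the sequence is from RefSeq (GRCm38.p6). The level of miR-6540 was not analysed here.
Mir6540 hairpin: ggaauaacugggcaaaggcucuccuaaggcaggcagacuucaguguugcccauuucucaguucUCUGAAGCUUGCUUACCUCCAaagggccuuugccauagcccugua

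Basp1, the brain acid soluble protein that resembles Gap43 in how it attaches to the membrane, gave a different picture. Its normalized counts were 1745.2, 2093.9, 1867.5 and 1753.9 in ENCDC libraries, against 1726.3, 1585.3, 1451.3 and 1718.7 in gut libraries. The populations were close, and the lowest ENCDC library exceeded the highest gut library by a narrow margin. On the deposited counts before scaling they overlapped, with 1718, 2058, 1859 and 1697 in ENCDC libraries against 1776, 1609, 1470 and 1735 in gut libraries. The means were 1865.1 ± 162.4 in ENCDCs, against 1620.4 ± 130.0 in gut cells (SD, 4 libraries each). The log2 fold change was 0.20 ± 0.10 (SE, edgeR adjusted p = 0.143), and 2 SE either way spanned 0.00 to 0.41. A difference of this size could not be resolved from the spread between libraries. Basp1 lies at chr15:25363277-25413764 on the minus strand.

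Marcks, the protein kinase C substrate that cross-links actin and holds PIP2 at the membrane, had 11425.1, 10695.3, 10827.3 and 13428.7 normalized counts in ENCDC libraries, against 6851.8, 7841.6, 7491.4 and 7430.7 in gut libraries. ENCDC replicate 4 was highest and no gut library reached the lowest ENCDC library. The means were 11594.1 ± 1263.6 in ENCDCs, against 7403.9 ± 410.2 in gut cells (SD, 4 libraries each), with a log2 fold change of 0.65 ± 0.09 (SE, 1.57-fold, edgeR adjusted p = 0.000172). The gut level was thus 63.9% of the ENCDC level. Marcksl1, its shorter relative, had 14082.5, 14615.5, 15580.0 and 13638.5 normalized counts in ENCDC libraries, against 8337.0, 8013.0, 7901.1 and 9394.1 in gut libraries. Here ENCDC replicate 3 was the highest library rather than the lowest. The log2 fold change was 0.78 ± 0.08 (SE, 1.72-fold, edgeR adjusted p = 1.82e-05), with means of 14479.1 ± 835.6 in ENCDCs, against 8411.3 ± 680.8 in gut cells (SD, 4 libraries each). Neither gene passed the test against a 2-fold change. Marcks lies at chr10:37133375-37138920 on the minus strand and Marcksl1 at chr4:129513581-129515985 on the plus strand.

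The study sought mRNA targets for a small group of microRNAs, so 1 annotated 3′ UTR for each of the 9 genes was searched for perfect matches to the seeds (bases 2 to 8) of miR-9-5p, miR-27b-3p, miR-137-3p and miR-488-3p. Marcks held 1 match each for miR-9-5p, miR-27b-3p and miR-488-3p in its 3′ UTR of 2733 bases, 0 matches for miR-137-3p, and the other 8 genes held none for any of the 4. Among 1195 3′ UTRs of mouse genes within 10% of that length, 23.8% held a match for miR-9-5p, 27.6% for miR-27b-3p, 25.7% for miR-488-3p and 21.6% for miR-137-3p. Of the 9 genes, the study's own lists of predicted targets held Marcks for miR-9 and miR-27b, but not for miR-488. They also held Gpm6b for miR-124, whose seed was not searched here. A match is a description of the sequence, and no microRNA level was analysed here. The mature microRNAs (RefSeq, GRCm38.p6) are shown with the seed in capitals, each above its window in Marcks, where the capitals mark the bases that pair with the seed. The miR-9-5p window is at chr10:37133787-37133812 and the miR-27b-3p window at chr10:37135237-37135262, both on the minus strand. Their seed matches begin at bases 2308 and 858 of the 3′ UTR.
miR-9-5p: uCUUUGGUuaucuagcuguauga
Marcks window for miR-9-5p: tcaaacctggtaACCAAAGgactgag
miR-27b-3p: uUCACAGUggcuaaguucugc
Marcks window for miR-27b-3p: agggtgtttttaACTGTGActattgt

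Because counts follow gene length, levels were compared between genes per kilobase of exon. In ENCDCs the order was Marcksl1, Gap43, Marcks, Tagln3, Uchl1, Basp1, Rtn1, Gpm6b and Gpm6a, with means ranging from 9021.3 ± 520.6 normalized counts per kb for Marcksl1 to 81.6 ± 7.94 for Gpm6a (SD, n = 4). Neighbors in that order did not overlap between libraries, except Basp1 (928.4 ± 80.8) and Rtn1 (794.2 ± 162.7). In gut cells the order was Marcksl1, Marcks, Basp1, Gap43, Gpm6b, Tagln3, Gpm6a, Uchl1 and Rtn1, from 5240.7 ± 424.2 normalized counts per kb for Marcksl1 to 15.4 ± 2.43 for Rtn1 (SD, n = 4). There Gpm6a overlapped with both Tagln3 and Uchl1. Of the 3 PIP2-binding genes that lead the set, Gap43 was thus the highest in ENCDCs at 4929.2 ± 732.2 normalized counts per kb, above Marcks at 2864.2 ± 312.2 and Basp1. In gut cells it was the lowest of the 3 at 197.4 ± 30.4, below Basp1 at 806.6 ± 64.7 and Marcks at 1829.0 ± 101.3. With the longest transcript of each gene as its length, Rtn1 came to 1089.8 and Uchl1 to 1920.0 normalized counts per kb in ENCDCs, which put Uchl1 above Tagln3 and Rtn1 above Basp1.

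**Figure D2:**
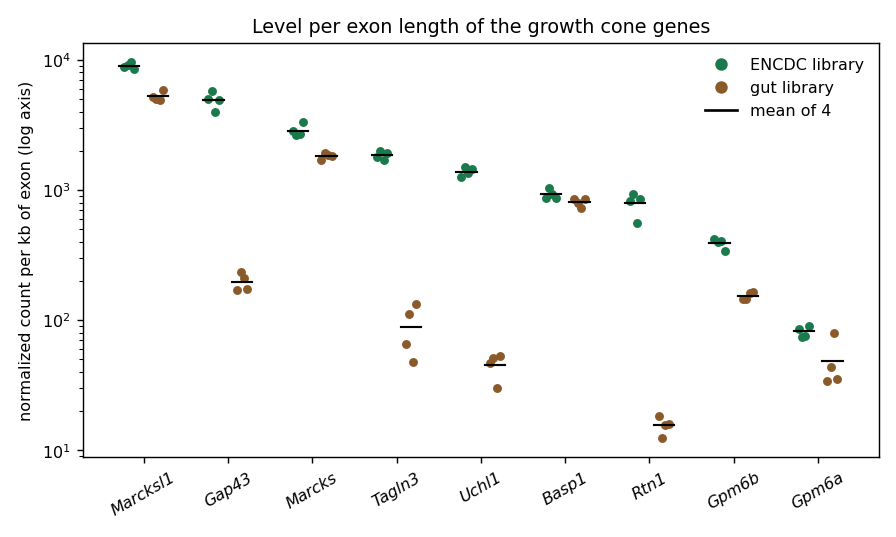
Normalized counts per kb of exon, on a log axis, for the 9 growth cone genes in order of their ENCDC level; points are libraries (ENCDC green, left of each pair; gut brown) and lines are means of 4. Gap43 is second in ENCDCs (4929.2) and is below Marcks and Basp1 in gut cells (197.4).

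Ratios of counts within a library, which do not depend on depth, set the paired genes against each other (2-sided exact permutation tests over 8 libraries, 4 ratios in all; with 4 against 4 libraries the smallest p possible is 0.0286). The ratio of Gap43 to Basp1 was 4.36, 4.21, 3.27 and 4.27 in ENCDC libraries, against 0.151, 0.226, 0.220 and 0.155 in gut libraries. Every ENCDC ratio lay far above every gut ratio, with the lowest in ENCDC replicate 3. The difference was 4.44 on the log2 scale (21.6-fold, exact p = 0.0286, adjusted over the 4 ratios p = 0.0572). The ratio of Gap43 to Marcks was 0.667, 0.825, 0.564 and 0.557 in ENCDC libraries, against 0.0382, 0.0457, 0.0427 and 0.0359 in gut libraries. This difference was 4.00 (15.9-fold, exact permutation p = 0.0286, adjusted p = 0.0572), again with no overlap. The ratio of Marcks to Marcksl1 was 0.811, 0.732, 0.695 and 0.985 in ENCDC libraries, against 0.822, 0.979, 0.948 and 0.791 in gut libraries. These overlapped, with a log2 difference of -0.14 (exact permutation p = 0.343, adjusted p = 0.343), so unequal change of the paralogs was not resolved. None of the 4 adjusted p-values was under 0.05. With only 2 of the 4 ratios at the smallest p possible, 0.0572 is the lowest adjusted value they can reach. The adjusted values therefore cannot decide on the 2 ratios without overlap.

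Tagln3, a neuronal member of the calponin family of actin-binding proteins, had 2205.4, 2484.6, 2111.6 and 2390.6 normalized counts in ENCDC libraries, against 81.6, 136.9, 59.2 and 163.5 in gut libraries. The ENCDC libraries were close together, while the gut libraries varied more, with a coefficient of variation of 7.4% in ENCDCs, against 43.7% in gut cells. The means were 2298.0 ± 170.0 in ENCDCs, against 110.3 ± 48.2 in gut cells (SD, 4 libraries each), and the log2 fold change was 4.38 ± 0.27 (SE, 20.8-fold, edgeR adjusted p = 4.29e-07). Tagln3 lies at chr16:45711230-45724608 on the minus strand of the chromosome that also carries Gap43.

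Rtn1, a reticulon that shapes the endoplasmic reticulum of neurons and neuroendocrine cells, had 4101.9, 4671.1, 2794.7 and 4252.0 normalized counts in ENCDC libraries, against 90.4, 61.1, 77.0 and 79.3 in gut libraries. As for Gap43, replicate 3 was the lowest ENCDC library. The means were 3954.9 ± 810.1 in ENCDCs, against 76.9 ± 12.1 in gut cells (SD, 4 libraries each). The log2 fold change of 5.68 ± 0.20 was the highest of the 9 (SE, 51.3-fold, edgeR adjusted p = 6.87e-09), and it was 5.82 without ENCDC replicate 3. The gene spans chr12:72211752-72409054 on the minus strand.

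Uchl1, the ubiquitin hydrolase whose protein PGP9.5 is a widely used stain for enteric neurons, had 2050.0, 2446.9, 2192.0 and 2350.3 normalized counts in ENCDC libraries, against 75.8, 82.8, 49.4 and 86.2 in gut libraries. No ENCDC library stood apart from the others. The means were 2259.8 ± 175.0 in ENCDCs, against 73.5 ± 16.7 in gut cells (SD, 4 libraries each), and the log2 fold change was 4.94 ± 0.18 (SE, 30.7-fold, edgeR adjusted p = 7.66e-09). The gene lies at chr5:66676091-66687234 on the plus strand. It shares 295 exonic bases with its antisense gene Uchl1os, whose highest count in any library was 1.

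The gut level of these 4 genes was 4.8% of the ENCDC level for Tagln3, 4.0% for Gap43, 3.25% for Uchl1 and 1.95% for Rtn1. Measured the same way, the median over the 8 neuron markers was 0.984% to 1.3% of the ENCDC level in gut libraries, and that over the 7 progenitor and glia markers was 1.47% to 5.14%. Whether ENCDCs within the gut fraction gave these counts was not tested. Without ENCDC replicate 3 the log2 fold changes were 4.42 for Tagln3 and 4.95 for Uchl1. In that library the neuron markers were at a median 88.5% of their ENCDC mean, against 95.9% to 110.2% in the other ENCDC libraries. The progenitor and glia markers were at 88.2%, against 101.8% to 107.8%, so both lists were lower there by their medians. Not every marker was: the neuron marker Tubb3 was highest in that library (10191.4 normalized counts, with 8133.8 to 9411.4 in the other ENCDC libraries). The progenitor marker Sox10 was also highest there (5743.2, with 4986.5 to 5537.3 in the other ENCDC libraries). The part of these marker levels in the low Gap43 and Rtn1 counts was not tested, nor that of the lower number of genes above 0 in that library.

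Gpm6a and Gpm6b encode closely related multi-pass membrane proteins, which promote filopodia and neurite outgrowth in cultured neurons. Gpm6b had 2348.6, 2210.9, 2275.4 and 1903.8 normalized counts in ENCDC libraries, against 813.6, 812.8, 906.3 and 916.3 in gut libraries. Every ENCDC library was more than 2-fold above every gut library. The means were 2184.7 ± 195.5 in ENCDCs, against 862.3 ± 56.8 in gut cells (SD, 4 libraries each), with a log2 fold change of 1.34 ± 0.10 (SE, 2.53-fold, edgeR adjusted p = 2.21e-06). The gene lies at chrX:166238911-166388988 on the plus strand.

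Gpm6a, the lowest of the 9 per length in ENCDCs, had 276.3, 239.1, 243.1 and 291.5 normalized counts in ENCDC libraries, against 108.9, 140.9, 257.7 and 112.9 in gut libraries. The populations overlapped because of gut replicate 3, which exceeded ENCDC replicates 2 and 3. The means were 262.5 ± 25.5 in ENCDCs, against 155.1 ± 69.9 in gut cells (SD, 4 libraries each), and the log2 fold change of 0.76 ± 0.29 did not pass the test (SE, edgeR adjusted p = 0.0574). Without gut replicate 3 it was 1.12 (edgeR adjusted p = 0.00461), and the call was also made by voom with limma (0.85, adjusted p = 0.0216) and DESeq2 (0.72, adjusted p = 0.0486). The summed count of 5 mesothelium markers was 3328.1 in gut replicate 3 and 1889.6 to 2361.7 in the other gut libraries, against 53.9 to 241.1 in ENCDC libraries. Gut replicate 3 was also the highest library for the summed epithelium markers (3342.9, with 2168.5 to 2465.0 in the other gut libraries) and mesenchyme markers (193335.5, with 145857.4 to 165923.1). Of the mesothelium markers 4 were lower in ENCDCs, 0 were at 0 in every ENCDC library and 2 were at 0 in at least 1, and the part of these 3 lists in the Gpm6a count was not tested. The ratio of Gpm6a to Gpm6b was 0.118, 0.109, 0.107 and 0.154 in ENCDC libraries, against 0.135, 0.174, 0.285 and 0.124 in gut libraries, which overlapped (log2 difference -0.50, exact permutation p = 0.114, adjusted p = 0.152). Gpm6a lies at chr8:54954843-55060871 on the plus strand.

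Promoters of 300 bases (250 before and 50 after a start, RefSeq, GRCm38.p6) were at hand for 7 of the 9 genes, with 10 starts in all. They were searched on both strands for the TATA box (TATAAA), the GC box (CCGCCC), the E-boxes CAGCTG and CAGATG, and the homeodomain core TAATTA. The motifs do not overlap one another in letters, though GC boxes can overlap each other. The GC box was in 5 of the 10 windows, against 35.7% of all 32851 promoters, TAATTA in 2 (5.29%), TATAAA in 1 (13.6%), CAGATG in 1 (17.2%) and CAGCTG in 0 (16.3%). The windows shown are those of Basp1, the gene that differed least between the populations, and of Tagln3 and Uchl1, which each have 1 start and differed over 20-fold, with motif matches in capitals. GC content was 78% for Basp1, which held 4 GC boxes, 57.3% for Tagln3, which held 1 TAATTA, and 50.7% for Uchl1, which held 0 of these motifs, and the median of all promoters was 52.7%. Basp1 is at chr15:25413715-25414014 (minus strand), Tagln3 at chr16:45724482-45724781 (minus strand) and Uchl1 at chr5:66675871-66676170 (plus strand).
Basp1 promoter: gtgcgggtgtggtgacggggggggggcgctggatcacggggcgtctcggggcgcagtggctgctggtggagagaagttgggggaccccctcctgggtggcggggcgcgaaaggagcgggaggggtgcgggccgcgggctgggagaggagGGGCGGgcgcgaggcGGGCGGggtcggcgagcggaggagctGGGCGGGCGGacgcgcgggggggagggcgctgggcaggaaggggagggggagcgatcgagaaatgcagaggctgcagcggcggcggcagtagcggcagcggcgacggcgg
Tagln3 promoter: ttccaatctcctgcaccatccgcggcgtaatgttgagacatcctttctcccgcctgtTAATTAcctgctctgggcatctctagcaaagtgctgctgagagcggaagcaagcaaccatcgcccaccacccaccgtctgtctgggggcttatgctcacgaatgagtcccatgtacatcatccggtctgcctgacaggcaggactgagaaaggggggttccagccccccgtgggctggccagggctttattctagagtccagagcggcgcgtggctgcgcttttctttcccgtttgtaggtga
Uchl1 promoter: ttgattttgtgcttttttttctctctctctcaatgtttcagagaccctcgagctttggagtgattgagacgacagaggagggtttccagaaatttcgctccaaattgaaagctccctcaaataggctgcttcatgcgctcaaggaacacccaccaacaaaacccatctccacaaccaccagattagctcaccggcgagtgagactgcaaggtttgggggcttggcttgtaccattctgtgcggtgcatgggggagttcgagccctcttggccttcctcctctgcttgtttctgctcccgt

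The paralogs of the 9 genes place them within their families. Of 13 paralogs tested, 8 were higher in ENCDCs, 3 were lower and 2 did not pass the test, with a median log2 fold change of 0.55. Beside this, 17% of all tested genes were called higher and 20.9% lower, so the 3 lower paralogs lie near the share over all genes. Among reticulons, Rtn2 was higher by 2.57 ± 0.17, Rtn3 by 1.12 ± 0.10 and Rtn4, which encodes the axon growth inhibitor Nogo, by 1.10 ± 0.15 (log2, SE), so all 4 reticulons were higher and Rtn1 most of all.

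The calponin family went both ways. Tagln2 was higher by 0.74 ± 0.09 and Cnn3, which is abundant in many embryonic cells, by 0.33 ± 0.07 (log2, SE). The 3 lower paralogs were Tagln at -3.77 ± 0.42, Cnn1 at -3.79 ± 0.59 and Cnn2 at -2.53 ± 0.24 (log2, SE), and Tagln and Cnn1 are also on the list of smooth muscle markers, of which all 7 were lower. Tagln had 66.1 ± 49.9 normalized counts in ENCDCs, against 904.3 ± 31.0 in gut cells (SD, 4 libraries each), the opposite of its neuronal paralog Tagln3. Among ubiquitin hydrolases, Uchl3 was higher by 0.55 ± 0.14 and the nuclear Bap1 by 0.41 ± 0.14, and the values for Uchl5 (0.34 ± 0.17, edgeR adjusted p = 0.133) and Uchl4 (0.98 ± 0.63, adjusted p = 0.25) did not pass the test. Uchl4 is a close copy of Uchl3 with only 25.4 ± 10.7 normalized counts in ENCDCs, against 12.8 ± 6.19 in gut cells. How reads that match both genes entered the counts was not examined.

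**Figure D3:**
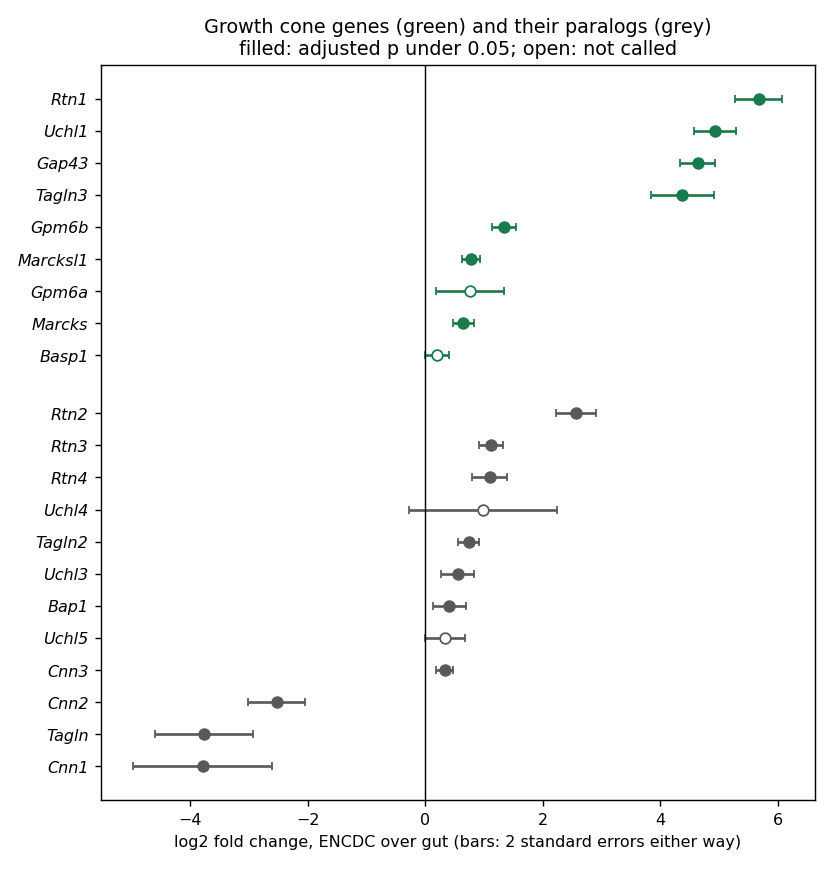
Log2 fold changes (ENCDC over gut) of the 9 growth cone genes (green, above) and of the paralogs named in the text (grey, below); bars are 2 standard errors either way and open points did not pass an adjusted p under 0.05. Growth cone genes run from 5.68 (Rtn1) to 0.20 (Basp1) and these paralogs from 2.57 (Rtn2) to -3.79 (Cnn1).

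The partners through which Gap43, Basp1 and Marcks are regulated were examined as a list. Of 21 genes for calmodulins, protein kinase C isoforms, calcineurin, PIP2-making kinases, adducins and the small calmodulin-binding proteins Nrgn and Pcp4, 5 were higher in ENCDCs, 7 were lower and 9 did not pass the test, with a median log2 fold change of -0.01. These shares lie near those over all genes (17% higher and 20.9% lower) and are no result about the partners. The calmodulin gene Calm2 was higher by 0.66 ± 0.10 (log2, SE). Of the kinases, Prkcb, an isoform common in neurons, was higher by 1.95 ± 0.28 and Prkce by 0.89 ± 0.28 (log2, SE). Prkcd was lower at -1.56 ± 0.17, Prkcq at -1.37 ± 0.29 and Prkch at -2.63 ± 0.77 (log2, SE). The adducins, actin-capping proteins that are also kinase C substrates, split by gene: Add2 was higher by 1.87 ± 0.19, while Add1 was at -0.40 ± 0.12 and Add3 at -0.65 ± 0.15 (log2, SE). Add2, Prkcb and Prkcd had 1638.7 ± 322.5, 830.1 ± 298.2 and 363.9 ± 68.3 normalized counts in ENCDCs, against 447.7 ± 108.0, 214.6 ± 30.6 and 1072.1 ± 161.8 in gut cells (SD, 4 libraries each). Prkcd, Prkcq and Prkch were named after their values were seen.

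Among 33 other genes of the growth cone cytoskeleton and of axonal adhesion, 23 were higher in ENCDCs, 4 were lower and 6 did not pass the test. The shares over all tested genes were 17% higher and 20.9% lower. The median log2 fold change of the list was 1.28, beside 1.34 for the 9 growth cone genes. Those that passed with the highest mean counts were Dpysl3, a collapsin response mediator (3.99 ± 0.12), Stmn1, which destabilizes microtubules (1.35 ± 0.10), and Cfl1, the actin-severing cofilin (0.49 ± 0.09), all higher, and the small GTPase Cdc42, which was lower at -0.33 ± 0.08 (log2, SE). Dpysl3 had 18915.3 ± 2829.4 normalized counts in ENCDCs, against 1189.5 ± 48.9 in gut cells (SD, 4 libraries each). Cfl1 had 14189.3 ± 1040.4 in ENCDCs, against 10086.6 ± 921.6 in gut cells (SD, 4 libraries each), a difference of about the size seen for Marcks. The other 3 lower genes were Ablim1 (-2.16 ± 0.13), Cap2 (-1.07 ± 0.24) and Vasp (-0.64 ± 0.13), all of which encode actin-binding proteins.

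Of the receptors for Nogo and other myelin inhibitors, 6 of 7 listed genes could be tested, and 4 of them did not pass. The 1 higher and 1 lower gene lie near the shares over all genes (17% higher and 20.9% lower). These counts are no result about the list. Ngfr, the low-affinity neurotrophin receptor and a marker of neural crest, was higher by 3.53 ± 0.25, and Lingo1 was lower at -1.27 ± 0.42 (log2, SE, edgeR adjusted p = 0.0332). Rtn4r, the receptor itself, had 15.1 ± 6.16 normalized counts in ENCDCs, against 25.0 ± 16.3 in gut cells (SD, 4 libraries each), too few to resolve a difference of this size. The number of lower genes in this list depended on single libraries: 0 without ENCDC replicate 1 or without gut replicate 1, 3 or 4, 2 without ENCDC replicate 4 and 3 without ENCDC replicate 3. Without ENCDC replicate 1 there were 2 higher genes.

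**Figure D4:**
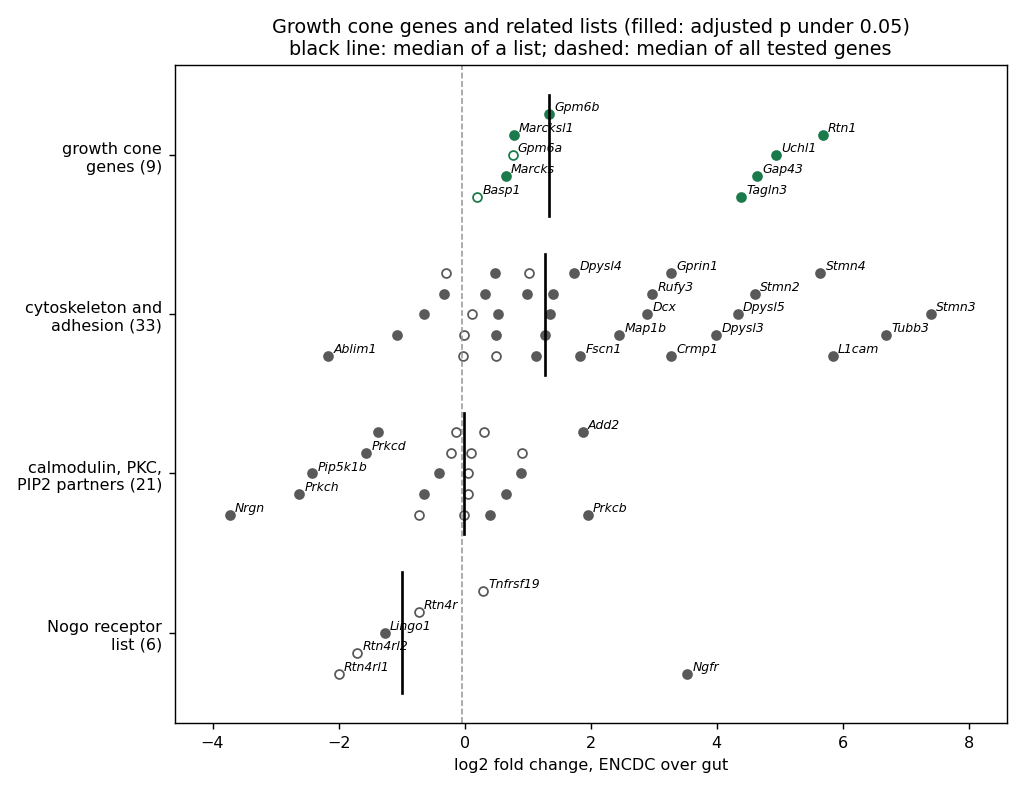
Log2 fold changes (ENCDC over gut) of the 9 growth cone genes (green) and of 3 related lists (grey); filled points passed an adjusted p under 0.05, black lines are list medians and the dashed line is the median of all tested genes (-0.041). The growth cone genes and the cytoskeleton and adhesion genes have medians of 1.34 and 1.28, the calmodulin, kinase C and PIP2 partners -0.01 and the Nogo receptor list -1.0.

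The genes most like Gap43 and Marcks across the 8 libraries were sought among 10353 genes with a mean of at least 100 normalized counts in ENCDCs, by the root mean square difference of centered log2(normalized count + 1) values. For Gap43 these were Plekhb1, Cdh6, Syt11, Insm1 and Cadm1, at differences of 0.144, 0.164, 0.175, 0.203 and 0.242. Their log2 fold changes lay between 4.29 and 4.84, around that of Gap43 (4.64). For Marcks they were Usp10, Nudt3, Dyrk1b, Ppp2r2a and Nif3l1, at differences of 0.0721, 0.0744, 0.0752, 0.0801 and 0.0864. Their log2 fold changes lay between 0.54 and 0.73, and no growth cone gene was among the 5 nearest to either. The measure is a description that rests largely on the difference between populations.

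**Figure D5:**
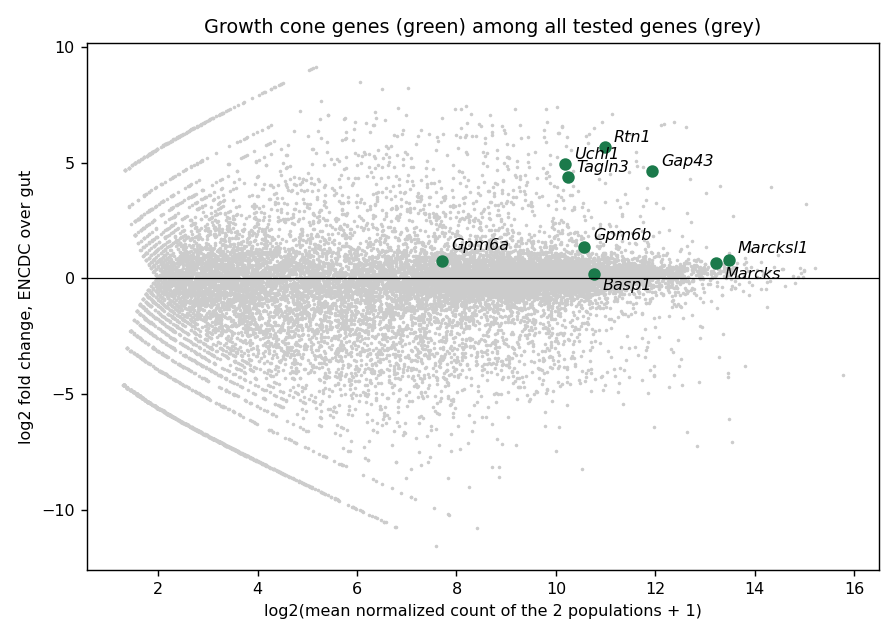
Log2 fold change (ENCDC over gut) against log2(mean normalized count of the 2 populations + 1) for all 18866 tested genes (grey), with the 9 growth cone genes in green. Rtn1, Uchl1, Gap43 and Tagln3 form an upper group above 4, and the other 5 lie between 0.20 and 1.34 and include Marcksl1 and Marcks at the abundant end.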

How the data were processed

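The 8 mRNA libraries, 4 per population, were each begun from 750 pg of RNA. The deposited counts are whole reads per gene, in the minimum normalized form that the study used for mRNA. The authors aligned reads to mm10 with STAR 2.4.2a and normalized them with PORT, which keeps an equal number of reads in every library, so totals differed by at most 0.123% and no longer show the sequencing depth. The design text speaks of small RNA and CPM, but titles and values were those of mRNA counts. For a low gene, counting error adds to the spread between libraries.

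The comparison used edgeR 4.0.16 under R 4.3.3 (TMM, quasi-likelihood test, Benjamini-Hochberg adjustment, threshold 0.05). The SE of a fold change was its absolute log2 value over the square root of the F statistic of that test. A gene was tested if, in either population, its counts averaged 3 or more and 3 of 4 libraries were above 0. Other settings were voom with limma 3.58.1, DESeq2 1.42.0, other scaling and filters, a replicate block, leaving out each library and testing against a 2-fold change. Of these, voom with limma was the test used in the study. Ratios used a pseudocount of 1. Gene models were GENCODE M21, and reads were counted with no strand information stated in the sources used here. Tables and figures were made in Python 3.11.15 with pandas 2.3.3, scipy 1.17.1 and matplotlib 3.10.9. Named were the 9 genes, all paralogs, and from each other list the 4 of highest mean count among called genes and any called against most of the list. A few genes counted in the lists are not reported here one by one. The genes and lists were chosen with earlier results of these data known. Mature miR-124 and the Gap43 and Marcks promoters were not used here.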

Additional observations from a re-analysis of the deposited data

Results flagged for a closer look

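The log2 ratio of Gap43 to Basp1 had 1 ENCDC library away from the others. It was 2.12, 2.08 and 2.09 in ENCDC replicates 1, 2 and 4 and 1.71 in ENCDC replicate 3, against -2.72 to -2.15 in gut libraries. The gap from replicate 3 to the nearest other ENCDC library made up 0.881 of the range of the 4 libraries, above Dixon's 95% critical value for 4 samples. In all, 26 groups of 4 libraries were looked at in this way, and chance alone marks about 1 in 20. In replicate 3 Gap43 was the lowest of the ENCDC libraries while Basp1 was not, and the difference between ENCDCs and gut cells was 4.53 without that library and 4.44 with it.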

How the results depend on the processing

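All 144 fold changes of the 9 growth cone genes under other settings kept their direction, and of 389 alternative values in all 0 changed sign after being called and 363 stayed on the same side or within the spread. Against a 2-fold change, Marcks (0.65) and Marcksl1 (0.78) lost their calls, calls over all genes came to 983 higher and 2031 lower (against 3212 and 3946), paralogs called higher to 2, partners to 2 higher and 2 lower, lower cytoskeleton genes to 1 and lower Nogo receptors to 0. Gpm6a gained a call with voom (0.85) and DESeq2 (0.72), and single libraries left out gave 0.62 to 1.12 (adjusted p 0.00461 to 0.146). Lower Nogo receptors numbered 3 with voom, 3 with DESeq2 and 2 without a filter, and with a library left out 0 to 3 (higher 1 to 2). By the longest transcript, levels per kb in ENCDCs were 1089.8 for Rtn1, 1920.0 for Uchl1 and 458.6 for Gpm6b. On deposited counts, a setting chosen after seeing the data, Basp1 overlapped between populations. The causes were not tested. Deviations of same-numbered libraries from their population means were hardly correlated (-0.0133 to 0.0318). These correlations cannot tell whether same-numbered libraries came from the same bowels. With a replicate block, Gap43 was at 4.64, Basp1 0.20, Marcks 0.64, Marcksl1 0.79, Tagln3 4.46, Rtn1 5.66, Uchl1 4.96, Gpm6a 0.85 and Gpm6b 1.34, no call of the 9 changed, and 2609 genes were called higher and 3324 lower.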
